A study of Mus musculus with 15 samples.

Results

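Dapagliflozin was compared with vehicle in the kidneys of db/db mice, using the 7 libraries of like sequencing depth (dapagliflozin 1 to 5, and vehicle 4 and 5). Described are genes whose mean reached 5 FPKM (a read level corrected for transcript length and sequencing depth) over these 7 libraries. They were 7628 of the 17832 genes in the table and are called members below. Just inside the minimum lay Cldn15, Larp7 and Spata2, each at a mean of 5.004 FPKM. Dnajc21 at 4.996 FPKM, and Mef2a and Prkx, both at 4.993 FPKM, lay just outside it.

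All mice were male, of the strain C57BLKS/J and 22 weeks of age, and RNA came from whole kidney. Both groups compared here carried the db/db genotype, a loss of leptin receptor signalling that makes mice obese and diabetic. Vehicle was 0.5% methylcellulose, and the treated mice received 1 mg/kg dapagliflozin in it. A further 8 libraries, 5 of vehicle-treated m/m mice without diabetes and db/db vehicle 1, 2 and 3, were sequenced more deeply and are used only for checks. Nothing in the labels ties each library to its own animal. A p-value here thus measures only how far these samples spread, and that spread may be technical.

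Dapagliflozin blocks SGLT2, the sodium-glucose cotransporter that takes up most of the filtered glucose in the early proximal tubule. SGLT1, further along the tubule, takes up what SGLT2 leaves. The series' title links the drug in diabetic kidney disease to the hypoxia factor HIF1α, to heme oxygenase HO1 and to ferroptosis, a cell death driven by iron and lipid peroxides. HIF1α is controlled mainly through the stability of the protein, so the mRNA of Hif1a is not a measure of its activity.

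The 7 libraries held 1.60 to 2.29 M reads in genes, against 14.8 to 16.4 M in the other 8. Members took 93.0% to 93.9% of the reads of the 7 libraries, with a median of 101 reads per member and library, and 282 members averaged under 20 reads. The 14 proximal tubule markers summed to 6846 and 7078 FPKM in the vehicle libraries and to 6916 to 7431 FPKM with dapagliflozin. Of 5 adrenal cortex markers in the table, Cyp11a1, Cyp21a1 and Mc2r stayed under 1 FPKM in all 7 libraries, Akr1b7 reached 3.63 FPKM, and Star was at 9.08 to 12.3 FPKM. Of 7 urothelial markers, Upk1a, Upk1b, Upk2 and Upk3a stayed under 1 FPKM, and Upk3b and Psca reached 1.82 and 1.87 FPKM. Krt5, a basal keratin, was at 12.5 and 0 FPKM in vehicle and at 0, 4.06, 4.53, 1.60 and 11.3 FPKM with dapagliflozin. The part of such cells in any result was not tested. Fewer cells of a type and less RNA per cell cannot be told apart in whole kidney.

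Before any gene is compared, the libraries themselves need a description, because several resembled each other across the treatment labels. For each pair of libraries the variance between their read numbers was divided by what independent sampling of reads gives, over the genes with 20 to 99 reads. A ratio of 1 is sampling alone, and biological differences raise it. Of the 21 pairs, 4 lay below 1. These were vehicle 5 with dapagliflozin 1 at 0.73 (95% interval 0.70 to 0.76), vehicle 4 with dapagliflozin 5 at 0.76 (0.73 to 0.79), dapagliflozin 2 with 3 at 0.72 (0.70 to 0.75), and dapagliflozin 1 with 2 at 0.89 (0.85 to 0.92). The other 17 pairs lay between 1.2 and 2.61, and vehicle 4 with vehicle 5 was at 1.64. None of the 28 pairs among the deeper libraries lay below 1.

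**Figure D1:**
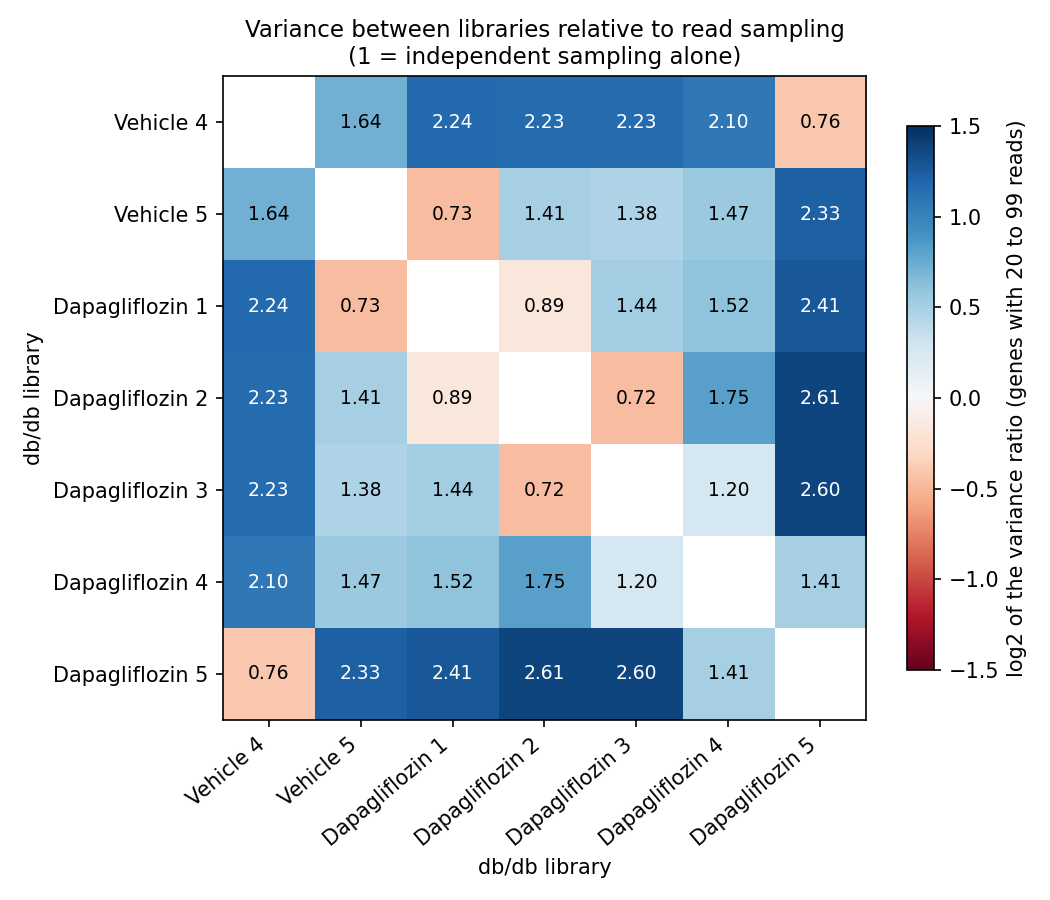
Variance between the read numbers of each pair of the 7 db/db libraries relative to independent sampling (both axes: libraries; colour: log2 of the ratio; printed: the ratio itself). Vehicle 4 is closest to dapagliflozin 5 (0.76) and vehicle 5 to dapagliflozin 1 (0.73), while the 2 vehicle libraries are at 1.64.

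Each vehicle library therefore lay nearer to a dapagliflozin library than to the other vehicle library. The same pairs led when genes of 5 to 10 reads were asked for exactly equal read numbers. Vehicle 4 and dapagliflozin 5 had the same number in 16.3% of such genes, dapagliflozin 2 and 3 in 15.2%, vehicle 5 and dapagliflozin 1 in 14.2%, and the pair of vehicle libraries in 10.6%. Over all genes with at least 20 reads the ratio was 1.00 for vehicle 5 with dapagliflozin 1, 1.02 for dapagliflozin 2 with 3, 1.66 for vehicle 4 with dapagliflozin 5 and 1.73 for dapagliflozin 1 with 2. Dapagliflozin 2 and 3 differed by less than the sampling noise and were counted as 1 sample (their mean), which left 4 dapagliflozin samples against 2 vehicle samples. Dapagliflozin 1 stayed a sample of its own although its ratio with 2 was 0.89, so these 4 samples may not be independent. The pairs that cross the labels were kept apart, and whether they share material was not tested. All p-values and intervals below treat these libraries as independent samples, which ratios below 1 do not bear out.

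The first question was which genes differed with dapagliflozin. No member passed the test, and neither did any other gene. Of 12848 genes whose mean reached 0.5 FPKM, limma on log2(FPKM + 1) with Benjamini-Hochberg adjustment called 0 higher and 0 lower (0% of the tested genes each), and limma-voom on read numbers also called 0. The smallest adjusted p among members was 0.842. At an unadjusted p under 0.05 there were 376 members, which is 4.93% of them, beside 5.62% of all tested genes, and 605 genes by limma-voom. By direction, 204 members were higher (2.67%, beside 2.79% of the tested genes) and 172 lower (2.25%, beside 2.83%). All 5 dapagliflozin libraries lay above both vehicle libraries for 416 members (5.45%, beside 5.69% of the tested genes) and below both for 486 (6.37%, beside 7.11%). Each of these shares is near its background, so none is a result about the members. The tests took all samples as independent, including the pairs that cross the labels. A count of 0 therefore does not show that the drug had no effect.

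The differences that were measured were small. The median log2 fold change was -0.01 over members and -0.02 over all tested genes, and members ran from -0.28 at the 5th to 0.26 at the 95th percentile. The 95% interval of the fold change stayed within 2-fold for 7373 members (96.7%) and within 1.5-fold for 6011 (78.8%). These intervals hold only if the library pairs that cross the labels are independent, so larger drug effects are not excluded. For the median member the interval reached 0.31 on the log2 scale to either side of the estimate. Single libraries differed by similar amounts whether or not they shared a treatment. The median absolute log2 difference per member was 0.143 between vehicle 4 and 5, 0.110 between vehicle 5 and dapagliflozin 1, and 0.119 between vehicle 4 and dapagliflozin 5. The first principal component of the members (49.3% of the variance) placed vehicle 4 at -15.9 beside dapagliflozin 5 at -21.7, and vehicle 5 at 6.24 beside dapagliflozin 1 at 9.54.

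**Figure D2:**
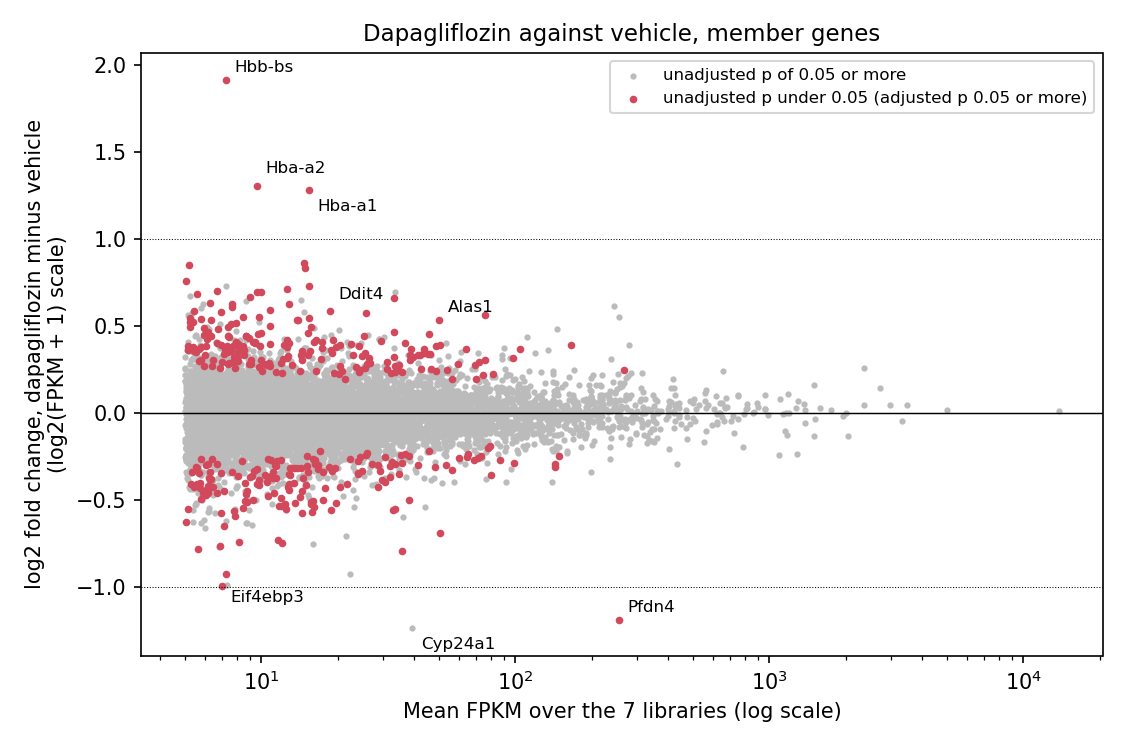
Log2 fold change of dapagliflozin minus vehicle for each of the 7628 members (vertical axis, log2(FPKM + 1) scale) against the mean FPKM over the 7 libraries (horizontal, log scale). Red points are the 376 members with an unadjusted p under 0.05, none of which passed adjustment, and dotted lines mark 2-fold, which 5 members exceeded on this scale.

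Of the alternative fits, 2 called members. With all 15 libraries in 1 model and the library set as a term, 9 members were called higher and 8 lower, and with the library pairs of low ratio as blocks, a setting chosen after seeing the data, 21 were called higher and 15 lower. The first takes its spread from all 15 libraries, 8 of them deeper, and the second from pairs that differ by less than independent sampling gives. Fold changes of the second rest only on vehicle 4 with dapagliflozin 5 and vehicle 5 with dapagliflozin 1. Dapagliflozin 4 and the mean of 2 and 3 were blocks of their own and add nothing to them, which leaves hardly any residual degrees of freedom. Only 4 members were called in both, namely Tusc1 and Dnajc15 (higher) and Eif4ebp3 and Gnat1 (lower). Leaving out any 1 library, or either pair that crosses the labels, gave 0 called members.

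The target of the drug and the genes of the title were looked at first. Slc5a2, which encodes SGLT2, was at 528 and 524 FPKM in vehicle 4 and 5 and at 548, 547, 574, 609 and 569 FPKM in dapagliflozin 1 to 5. All 5 treated libraries were above both vehicle libraries by a margin smaller than their own range, and the log2 fold change was 0.12 (95% interval -0.08 to 0.32, limma adjusted p = 0.923). Slc5a1, which encodes SGLT1, overlapped between the groups, with 44.5 and 47.5 FPKM in vehicle and 46.9, 33.9, 36.0, 43.5 and 47.9 FPKM with dapagliflozin. Its log2 fold change was -0.09 (-0.42 to 0.23).

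Hif1a stood at 12.2 and 10.2 FPKM in the vehicle libraries and at 11.8, 10.9, 11.3, 11.4 and 12.5 FPKM with dapagliflozin. The treated libraries lay between the vehicle libraries except dapagliflozin 5, just above. Its log2 fold change was 0.06 (-0.20 to 0.32, limma adjusted p = 0.975). Hmox1, the inducible heme oxygenase HO1 that breaks heme into biliverdin, iron and carbon monoxide, spread more widely. It was at 10.2 and 6.72 FPKM in vehicle 4 and 5 and at 4.41, 2.65, 3.17, 5.75 and 8.60 FPKM in dapagliflozin 1 to 5, from only 7 to 32 reads per library. Dapagliflozin 5 was above vehicle 5, the other treated libraries were below both vehicle libraries, and the log2 fold change of -0.61 had an interval from -1.42 to 0.19 (limma adjusted p = 0.909). The vehicle mean was 8.46 ± 2.46 FPKM (SD, n = 2) and the dapagliflozin mean 5.42 ± 2.42 FPKM (SD, n = 4).

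Ferroptosis is held back by Gpx4, the selenoenzyme that reduces lipid peroxides, and favoured by Acsl4, which loads polyunsaturated fatty acids into membrane lipids. Gpx4 was at 373 and 371 FPKM in vehicle and at 357, 311, 317, 379.7 and 387 FPKM with dapagliflozin (log2 fold change -0.05, interval -0.30 to 0.19). Acsl4 was at 8.66 and 6.81 FPKM in vehicle and at 6.98, 7.12, 7.2, 8.29 and 9.19 FPKM with dapagliflozin (0.03, -0.32 to 0.38). Both genes overlapped between the groups. Slc7a11, the cystine importer upstream of glutathione, was below the member minimum at 0 to 6 reads per library, and no fold is given.

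Iron import and storage genes also overlapped between the groups. Tfrc, the transferrin receptor, was at 5.47 and 5.04 FPKM against 5.81, 4.87, 4.12, 6.26 and 7.56 FPKM (log2 fold change 0.15, -0.27 to 0.58). Fth1, the ferritin heavy chain, was at 3369 and 3487 FPKM against 3286, 3021, 3032, 3492 and 3541 FPKM (-0.04, -0.30 to 0.21). Ftl1, the ferritin light chain, was at 1917 and 1611 FPKM against 1713, 1578, 1440.0, 1848 and 2109.9 FPKM (0.02, -0.34 to 0.38). For both ferritins the interval lies within 1.5-fold.

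**Figure D3:**
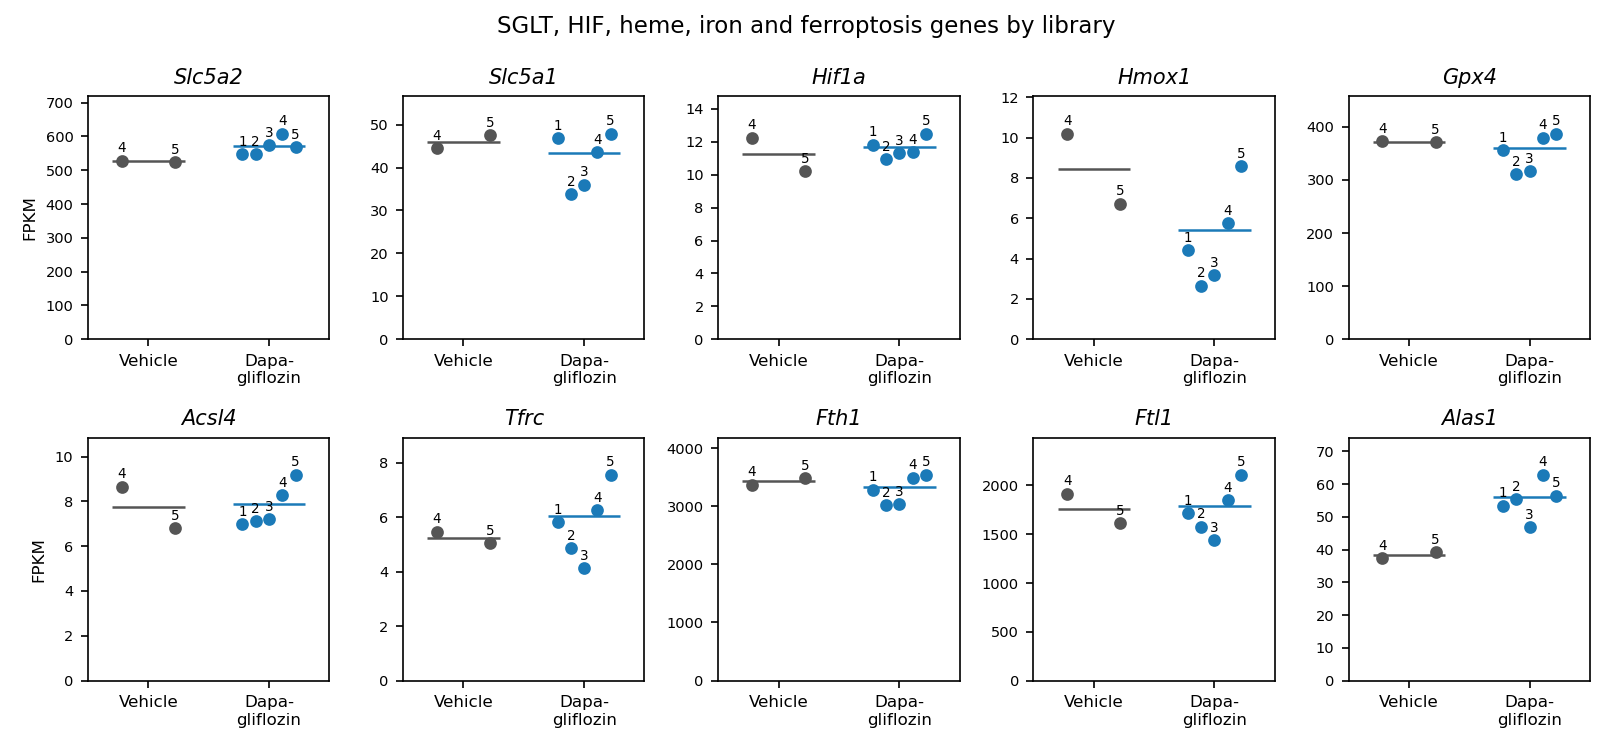
FPKM (vertical axes, from 0) of 10 genes in each vehicle and dapagliflozin library, with the library number beside each point and a line at the group mean (dapagliflozin 2 and 3 counted as 1). Of the genes shown, Slc5a2 and Alas1 do not overlap between the groups, and Hmox1 runs from 2.65 to 10.2 FPKM.

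The lists around these genes gave no called member and medians near 0. Of 16 ferroptosis-promoting members, 1 was higher and 1 lower at an unadjusted p under 0.05 (beside 2.79% and 2.83% of all tested genes). Their median log2 fold change was 0.03. The 20 ferroptosis-protecting members had 0 in either direction and a median of -0.06, and the 19 NRF2 targets likewise had 0 and -0.06. The 8 HIF pathway members had a median of -0.04, and the 22 HIF-1 targets one of -0.01. Of these targets, 1 was higher and 1 lower at that p, beside the same shares of all tested genes.

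The promoting gene with the smallest p was Nox4, an NADPH oxidase that makes hydrogen peroxide. It was at 59.5 and 63.0 FPKM in vehicle and at 82.1, 84.9, 69.5, 73.3 and 69.0 FPKM with dapagliflozin, without overlap (log2 fold change 0.29, 0.07 to 0.52, limma adjusted p = 0.859). In the HIF lists, Egln1, the prolyl hydroxylase that marks HIF1α for breakdown, was at 20.1 and 18.5 FPKM against 15.2, 14.4, 16.3, 17.6 and 17.0 FPKM, also without overlap (-0.23, -0.48 to 0.01). Neither passed the test. In the deeper db/db vehicle libraries Nox4 was at 75.9, 102 and 91.2 FPKM and Egln1 at 25.3, 25.2 and 22.3 FPKM. Both genes were thus higher there than in vehicle 4 and 5.

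Of 23 heme and iron members (median 0.01), 3 were higher and 1 lower at an unadjusted p under 0.05, beside 2.79% higher and 2.83% lower of all tested genes. The gene with the smallest p made heme. Alas1 encodes the first and rate-limiting enzyme of heme synthesis outside red cells. It was at 37.3 and 39.2 FPKM in vehicle and at 53.5, 55.3, 46.9, 62.9 and 56.5 FPKM with dapagliflozin, from 241 to 421 reads. The groups did not overlap, and the log2 fold change was 0.53 with a standard error of 0.10 (interval 0.29 to 0.78, unadjusted p = 0.00118, limma adjusted p = 0.842). In the deeper db/db vehicle libraries 1, 2 and 3, Alas1 was at 86.6, 48.7 and 66.5 FPKM, a wider range than the gap between the 2 groups. With the library pairs of low ratio as blocks, Alas1 was called (log2 fold change 0.51, limma adjusted p = 0.0375), as was Ddit4 (0.66, limma adjusted p = 0.0207). These blocked fold changes rest only on the pairs that cross the labels.

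Ddit4, a stress- and hypoxia-induced inhibitor of mTORC1 also called REDD1, had the smallest p of the HIF-1 targets. It was at 13.4 and 14.1 FPKM in vehicle and at 21.6, 20.6, 15.9, 22.1 and 23.1 FPKM with dapagliflozin. All treated libraries were above both vehicle libraries (log2 fold change 0.59, 0.31 to 0.86, unadjusted p = 0.0013, limma adjusted p = 0.842). The deeper db/db vehicle libraries, at 13.4, 12.1 and 15 FPKM, were near vehicle 4 and 5. They belong to another library set, so this closeness is not a test of the drug. Other genes without overlap, such as Nox4 and Dgat1, were not near.

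The other members with the smallest unadjusted p and no overlap, leaving out predicted genes, were chosen by their values and are given as values only. Higher with dapagliflozin were Tusc1, Cyp2d12, Dnajc15, Dgat1, Stk19, Fam98c, Hyls1, Cdk8 and Zbtb8os, with log2 fold changes from 0.46 to 0.84 and limma adjusted p = 0.842 each. Of these, Tusc1, Hyls1 and Zbtb8os averaged 3.59, 4.07 and 3.88 FPKM in vehicle. They reached the member minimum only through the dapagliflozin libraries, so the minimum itself favours their place here. Dgat1, which makes triglyceride in its last step, was at 7.64 and 8.83 FPKM in vehicle and at 12.3, 11.5, 10.9, 12.5 and 12.2 FPKM with dapagliflozin. The 5 treated libraries lay close together. The deeper db/db vehicle libraries, at 14.0, 12.3 and 13.0 FPKM for Dgat1, lay above vehicle 4 and 5 too. Dnajc15, a mitochondrial co-chaperone, was at 9.31 and 8.99 FPKM against 14.0, 13.8, 18.3, 22.5 and 16.9 FPKM, but from 11 to 29 reads. In the deeper db/db vehicle libraries it was at 50.2, 45.1 and 54.5 FPKM, above every treated library. Tusc1, with 9 to 19 reads per library, was at 3.68 and 3.49 FPKM against 6.66, 7.44, 5.49, 6.27 and 6.09 FPKM.

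Lower with dapagliflozin were Gnat1, Eif4ebp3, Mrps33, Trappc1, Cited2, Pex7, Tcf21, Ddx39a, Gpank1, Ube2q2, Gadd45a and Pick1, with log2 fold changes from -0.99 to -0.40 and limma adjusted p = 0.842 each. Cited2, a CBP/p300-binding protein that competes with HIF1α, was at 21.1 and 19.4 FPKM in vehicle and at 13.3, 12.8, 14.3, 13.5 and 15.6 FPKM with dapagliflozin. Tcf21, a transcription factor of podocytes and stroma, was at 16.0 and 16.5 FPKM against 9.80, 11.4, 11.4, 9.63 and 12.6 FPKM, from 23 to 40 reads. Both genes were chosen for a small p and no overlap, so the gap between their groups follows from the choice and is not further evidence. The deeper db/db vehicle libraries, given below, span every treated value for Tcf21 and lie above every treated value for Cited2. Gadd45a, a DNA damage response gene, was at 41.9 and 46.3 FPKM against 36.7, 31.7, 22.9, 26.3 and 29.7 FPKM. Eif4ebp3, an inhibitor of cap-dependent translation, was at 10.5 and 11.5 FPKM against 6.04, 6.22, 6.5, 3.94 and 4.18 FPKM, from 9 to 25 reads. In the deeper db/db vehicle libraries, Gadd45a was at 27.5, 17.8 and 31.1 FPKM and Tcf21 at 17.1, 14.8 and 9.51 FPKM. Cited2 was there at 31.5, 45.8 and 37.4 FPKM, and Eif4ebp3 at 15.1, 14.9 and 15.2 FPKM.

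Several of these genes could share reads with a neighbour. Of 82 named genes, 28 share exon sequence with another annotated gene in the GRCm38 annotation, among them Slc5a2, Hif1a, Ftl1, Alas1, Cyp2d12, Fam98c, Hyls1, Zbtb8os, Eif4ebp3, Gpank1, Gadd45a and Pick1. Gnat1, the rod transducin subunit, has no such overlap in that annotation. It was at 9.89 and 10.2 FPKM in vehicle and 4.91 to 6.55 FPKM with dapagliflozin. In the deeper db/db vehicle libraries it was at 0.275, 0.557 and 0.501 FPKM. Hyls1 was likewise at 3.87 to 7.97 FPKM here and at 0.843 to 1.35 FPKM there. Both genes differed more between the deeper and the shallower libraries than between treatments.

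None of the lists of energy metabolism held a called member. The 17 genes of sodium and glucose transport of the proximal tubule had a median log2 fold change of 0.05, from -0.13 (Slc5a8) to 0.24 (Slc5a12). Slc5a12, a lactate cotransporter, was at 117 and 129 FPKM in vehicle and at 166, 167, 147, 137 and 125 FPKM with dapagliflozin, with overlap. Gluconeogenesis (8 members), glycolysis (14), the tricarboxylic acid cycle (18), the respiratory chain and ATP synthase (31) and ketone body use (8) had medians of 0.02, 0.01, 0.00, 0.03 and -0.03.

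Among 35 members of fatty acid oxidation, 1 was lower at an unadjusted p under 0.05 (beside 2.83% of all tested genes) and the median was 0.00. That gene was Ehhadh, the peroxisomal bifunctional enzyme, at 99 and 101 FPKM in vehicle and 93.4, 79.9, 69.4, 78.6 and 86.0 FPKM with dapagliflozin (log2 fold change -0.27, limma adjusted p = 0.874). In cholesterol synthesis and uptake (17 members, median 0.12), Insig1, a brake on SREBP, was at 13.1 and 11.4 FPKM against 11.9, 13.5, 18.1, 24.0 and 21.0 FPKM. The mean level of this list was lowest in vehicle 5 and dapagliflozin 1, at -0.25 and -0.24, and highest in dapagliflozin 5 at 0.33 (log2 difference from the mean of the 7 libraries).

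The renin-angiotensin system had 9 members and a median of -0.03. At an unadjusted p under 0.05, 1 was higher (beside 2.79% of all tested genes). Ren1, the renin gene of the juxtaglomerular cells, was at 44.9 and 61.0 FPKM in vehicle. With dapagliflozin it was at 78.5, 104, 111, 73.6 and 59.0 FPKM. Dapagliflozin 5 was below vehicle 5, and the log2 fold change of 0.56 (0.02 to 1.11) did not pass (limma adjusted p = 0.874). The deeper vehicle libraries were at 56.2, 65.7 and 24.3 FPKM.

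Markers of most nephron segments had medians near 0. Median log2 fold changes were 0.07 for 14 proximal tubule markers, -0.02 for 9 podocyte markers, -0.03 for 8 thick ascending limb markers, 0.08 for 7 distal convoluted tubule markers and -0.04 for 11 endothelial markers. Over the collecting duct, 9 principal cell markers had a median of 0.17 and 9 intercalated cell markers one of 0.28. Of the intercalated markers, 3 were higher at an unadjusted p under 0.05 (2.79% of all tested genes were), and 4 lay above vehicle without overlap (5.69% of all tested genes did). Rhcg, an ammonia channel of these cells, was at 40.3 and 41.0 FPKM in vehicle and at 48.8, 51.7, 58.7, 61.6 and 50.0 FPKM with dapagliflozin (log2 fold change 0.39, 0.13 to 0.66, limma adjusted p = 0.842). The summed intercalated markers were at 177 and 192 FPKM in vehicle and at 205 to 253 FPKM with dapagliflozin, and the list's median was -0.06 when vehicle 1, 2 and 3 were added to the controls.

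The widest variation among members was in genes of macrophages, antigen presentation, acute-phase response and matrix, and single libraries stood out in both treatment groups. Lyz2, lysozyme of myeloid cells, was at 299 FPKM in vehicle 4 and 6.51 FPKM in vehicle 5, and at 9.61, 15.3, 14.8, 41.9 and 288 FPKM in dapagliflozin 1 to 5. Saa3, an acute-phase serum amyloid, was at 41.6 FPKM in vehicle 4 and 0 in vehicle 5, and at 0, 2.25, 2.35, 1.90 and 39.5 FPKM with dapagliflozin. Vehicle 4 and dapagliflozin 5 were thus high together and nearly equal, and vehicle 5 and dapagliflozin 1 low together.

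Lcn2, the tubular injury marker NGAL, was at 49.5 and 3.72 FPKM in vehicle and at 4.39, 10.5, 11.7, 8.26 and 48.7 FPKM with dapagliflozin. Slpi, a secreted protease inhibitor of inflamed epithelium, was at 75.2 and 0.921 FPKM against 0.465, 6.23, 7.59, 5.25 and 65.8 FPKM. C1qa, a complement subunit made by macrophages, was at 73.4 and 5.38 FPKM against 8.40, 8.83, 7.5, 17.7 and 73.6 FPKM. The same 2 libraries stood out in each. Col1a1, the main fibrillar collagen chain, was at 25.9 and 2.5 FPKM against 3.33, 5.03, 3.79, 2.89 and 23.4 FPKM. Vcam1, an adhesion molecule of endothelium and injured tubule, was at 17.0 and 1.87 FPKM against 1.57, 1.58, 2.57, 3.26 and 15.7 FPKM.

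**Figure D4:**
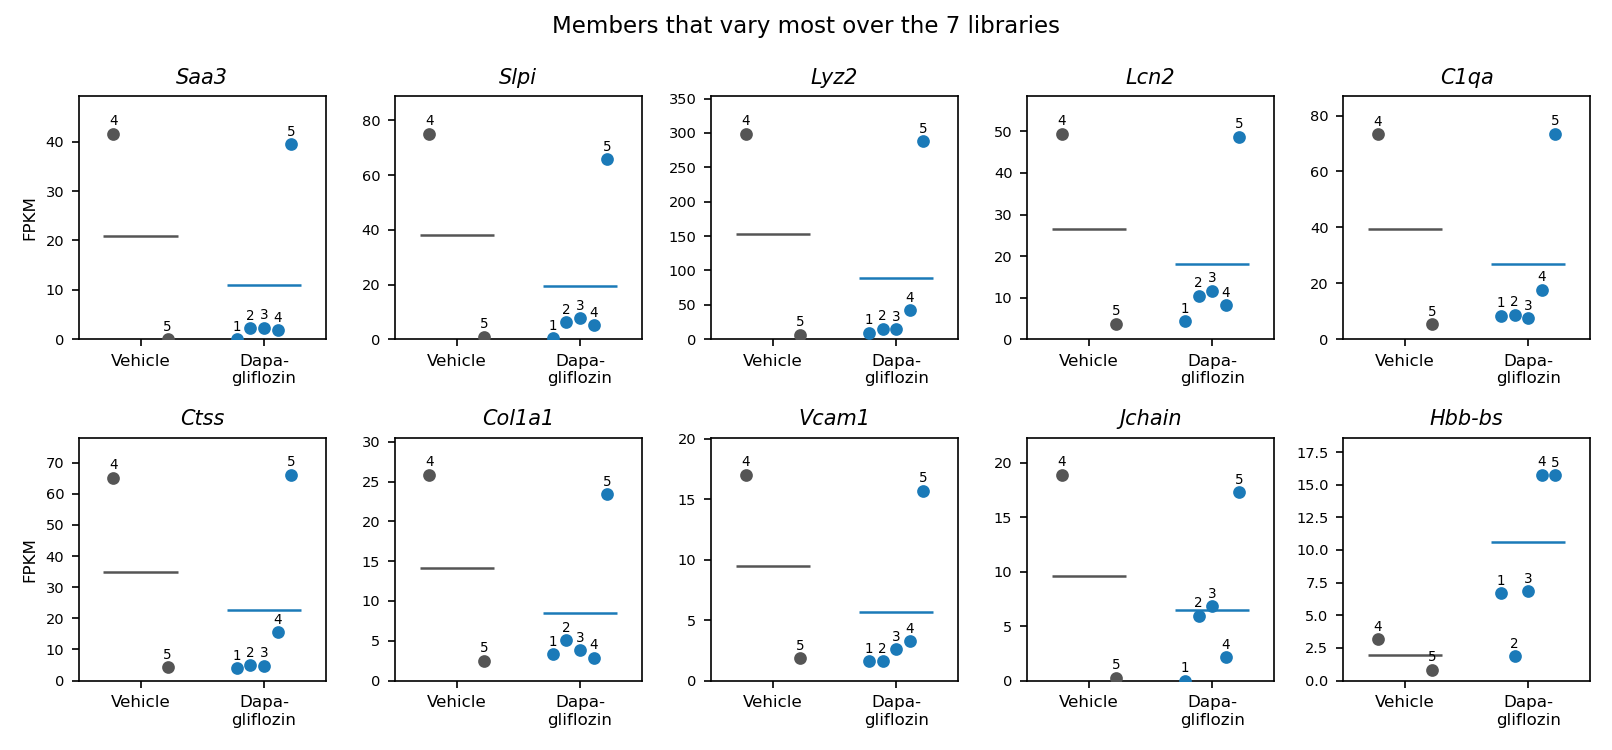
FPKM (vertical axes, from 0) of 10 members from the 20 that varied most over the 7 libraries, with library numbers beside the points and a line at the group mean (dapagliflozin 2 and 3 counted as 1). In all but Hbb-bs, vehicle 4 and dapagliflozin 5 are the 2 highest libraries, for example at 299 and 288 FPKM for Lyz2.

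Antigen presentation genes were also high in dapagliflozin 4. Cd74, the MHC class II invariant chain, was at 336 and 59.5 FPKM in vehicle and at 105, 106, 52.5, 422 and 637 FPKM with dapagliflozin. H2-Aa, an MHC class II chain, was at 99.8 and 13.6 FPKM against 13.3, 14.8, 12.2, 65.2 and 130.3 FPKM. Of the 165 members whose log2 level had a standard deviation above 0.5 over the 7 libraries, vehicle 4 and dapagliflozin 5 were the 2 highest for 82 (49.7%), and dapagliflozin 4 and 5 for 26 (15.8%). The median standard deviation of all members was 0.16.

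The lists that hold these genes had medians further from 0 and no called member in the main test. Median log2 fold changes were -0.27 for 6 macrophage markers, -0.26 for 19 members of extracellular matrix and fibrosis, -0.22 for 10 complement members, -0.19 for 13 tubular injury members and 0.35 for 12 members of MHC and antigen presentation. None of these lists had a member at an unadjusted p under 0.05, beside 5.62% of all tested genes. With the library pairs of low ratio as blocks, 5 of the antigen presentation members were called higher, namely B2m, Cd74, H2-Ab1, H2-D1 and H2-K1. Cd74, for example, had a log2 fold change of 0.86 there (limma adjusted p = 0.00495), against 0.62 in the main test (limma adjusted p = 0.968). The blocked fit takes its fold changes only from the pairs that cross the labels. Summed over 10 macrophage markers, the vehicle libraries were at 516 and 32.9 FPKM and the dapagliflozin libraries ran from 39.6 to 517 FPKM, so each group holds nearly the whole range. The 7 T cell markers in the table, none of them a member, summed to 9.45 and 0.474 FPKM in vehicle 4 and 5 and to 0.619 to 10.5 FPKM with dapagliflozin, and Cd3d, Cd4, Cd8a and Cd2 stayed under 1 FPKM throughout. The part of such cells in any difference of treatment was not tested.

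**Figure D5:**
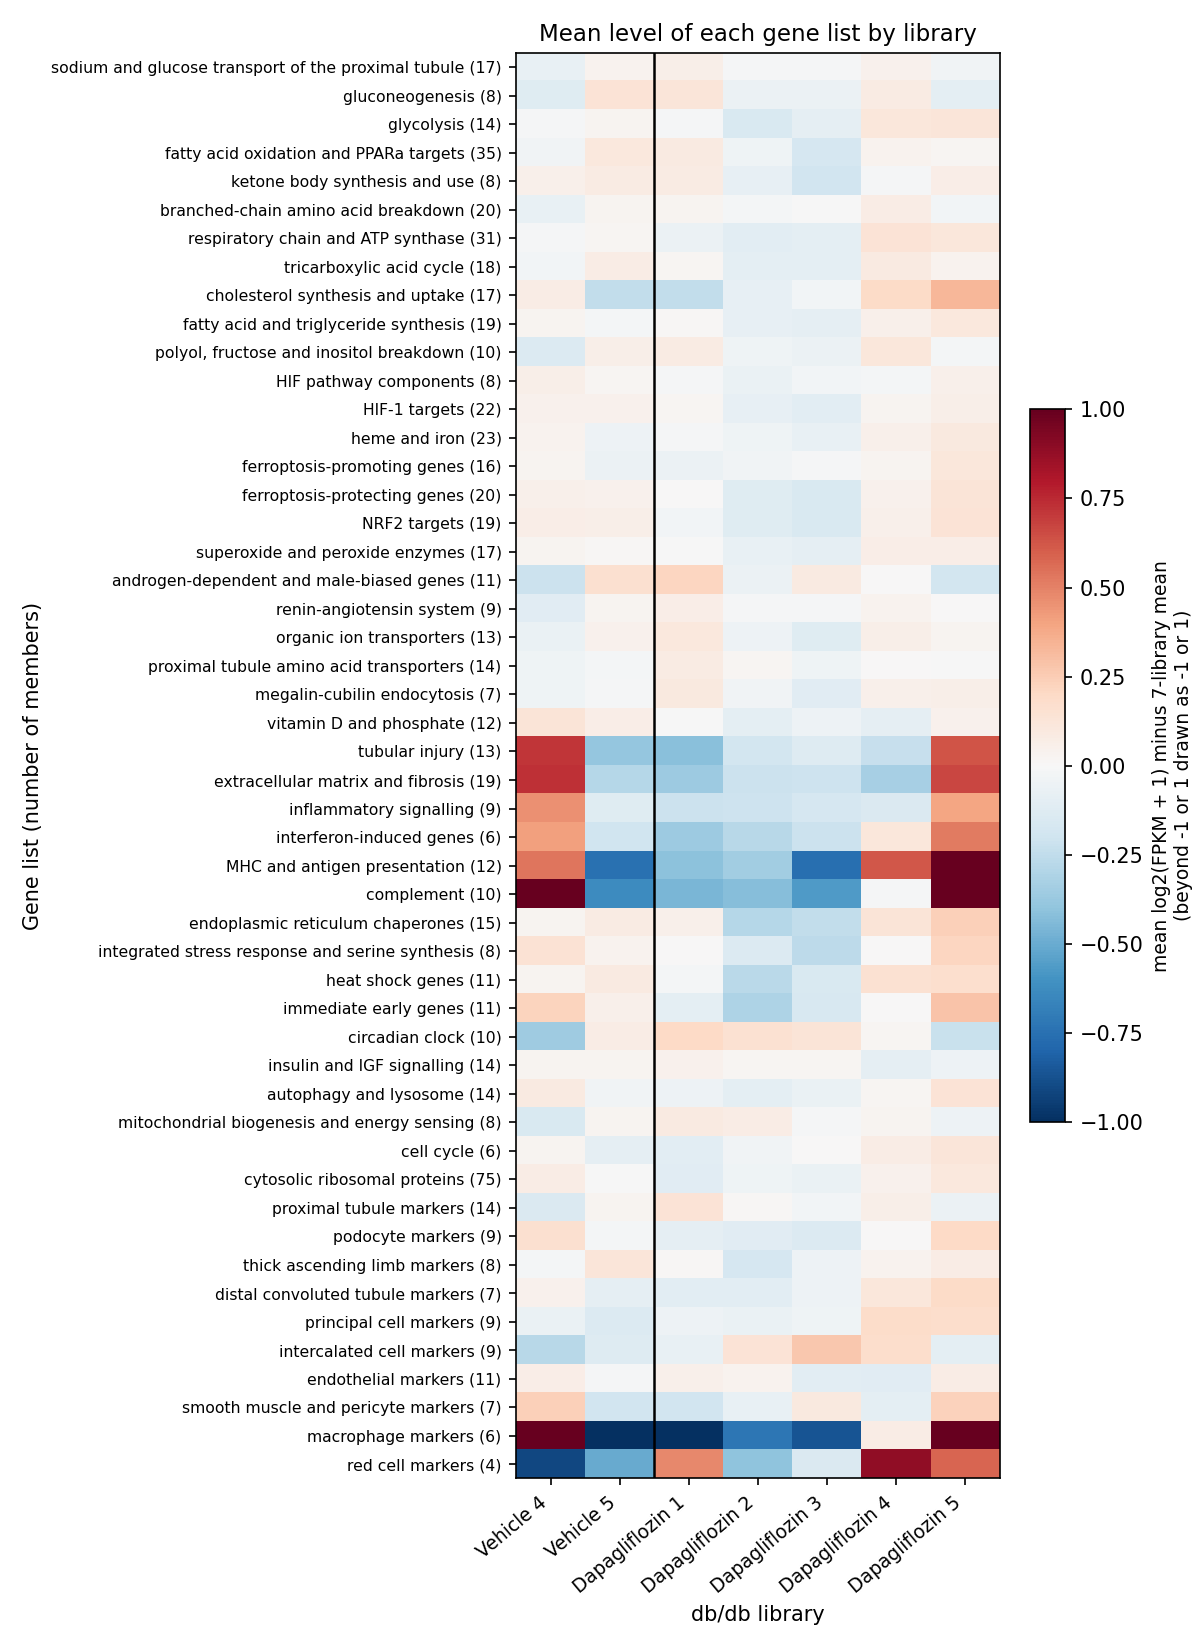
Mean log2(FPKM + 1) of each gene list with at least 3 members, minus its mean over the 7 libraries (colour, drawn up to -1 and 1), for each db/db library (columns; the line separates vehicle from dapagliflozin). Immune, matrix and injury lists are high in vehicle 4 and dapagliflozin 5, with macrophage markers at 1.89 and 1.93, and sodium and glucose transport stays between -0.08 and 0.06.

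Over all 50 lists with at least 3 members, 38 had a median log2 fold change within 0.1 of 0. Of the 664 distinct members on any list, 30 had an unadjusted p under 0.05 (4.52%), beside 5.62% of all tested genes, and limma called 0. The largest list median, 1.29, was that of red cell markers (4 members, 3 higher at an unadjusted p under 0.05, beside 2.79% of all tested genes). These 3, Hbb-bs, Hba-a1 and Hba-a2, were also called with the library pairs as blocks. Hbb-bs and Hba-a2 averaged 1.99 and 4.63 FPKM in vehicle, and reached the member minimum only through the dapagliflozin libraries. The minimum thus favours a high median and count here. Slc4a1, the remaining member, had a log2 fold change of 0.05. Below the minimum, Alas2 was at 3.24 and 2.36 FPKM against 1.59, 4.73, 4.64, 3.24 and 3.47 FPKM. Hbb-bt was at 0 except for 1.60 and 2.78 FPKM in dapagliflozin 4 and 5. Hbb-bs, adult β-globin, was at 3.15 and 0.83 FPKM in vehicle and at 6.69, 1.87, 6.83, 15.8 and 15.7 FPKM with dapagliflozin, from 1 to 23 reads. Hba-a1, α-globin, was at 4.50 and 11.4 FPKM against 22.9, 9.61, 12.3, 28.8 and 18.0 FPKM. Dapagliflozin 2 lay between the vehicle libraries in both genes. Hba-a1 and Hba-a2 are near-identical copies whose reads may be split between them, and the part of residual blood was not tested. In the deeper vehicle libraries Hbb-bs was at 26.9, 123 and 63.6 FPKM.

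On the log2(FPKM + 1) scale, Cyp24a1 and Pfdn4 were the other members beyond 2-fold besides these globin genes and Hba-a2. Cyp24a1, the enzyme that inactivates vitamin D, was at 86.2 and 45.9 FPKM in vehicle and at 27.1, 15.7, 14.9, 16.0 and 69.2 FPKM with dapagliflozin (log2 fold change -1.23, -2.62 to 0.15, limma adjusted p = 0.895). Pfdn4, a prefoldin subunit, was at 512 and 319 FPKM against 169, 147, 135, 101 and 403 FPKM (-1.19, limma adjusted p = 0.883). Dapagliflozin 5 was above vehicle 5 in both. The annotated ranges of the 2 genes overlap in GRCm38, and Pfdn4 was at only 6.94 to 11 FPKM in the deeper db/db vehicle libraries, so their reads may be shared. Cyp24a1 was at 65.0, 323 and 61.4 FPKM in those libraries, a wide spread within vehicle.

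Whether dapagliflozin moved genes against the effect of the diabetic genotype could be asked without a shared library, since db/db vehicle 1, 2 and 3 against m/m used only the deeper set. There, 2974 of 7371 members were higher in db/db (40.3%, beside 41.6% of 12314 tested genes) and 1034 lower (14%, beside 11.1%). With dapagliflozin, the members higher in db/db had a median log2 fold change of -0.02 and those lower in db/db one of 0.00. Members at least 4-fold higher in db/db numbered 30, with a median of -0.14, of which 22 were below 0 and 0 were called. The 36 members at least 4-fold lower had a median of 0.04, with 22 above 0 and 0 called. Beside these, 1664 of all 2974 members higher in db/db were below 0, and 525 of all 1034 lower were above 0. The 30 include Lcn2, Slpi and Lyz2, in which vehicle 4 and dapagliflozin 5 stood out. Across 7371 members Pearson's r of the log2 fold changes was -0.05, given as a description, since genes are not independent replicates. In the main test, no member was called in opposite directions.

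Among the genes that differed most by genotype, none passed the main test with dapagliflozin. Cyp4a14, a fatty acid ω-hydroxylase induced by PPARα, was at 213 and 233 FPKM in vehicle and at 269, 286, 168, 226 and 234 FPKM with dapagliflozin (log2 fold change 0.10, -0.14 to 0.33, against 6.78 for db/db minus m/m). Kap, the androgen-regulated protein of the proximal tubule, was at 1793 and 2644 FPKM against 2605, 1607, 1873, 2021 and 1702 FPKM (-0.13, -0.65 to 0.39, against -4.25). For Cyp4a14 the treated libraries lay on either side of the vehicle libraries or between them, and for Kap between or below them. Gc, the vitamin D-binding protein, was at 80.2 and 99.9 FPKM against 94.1, 100.5, 97.4, 74.7 and 66.9 FPKM. Bhmt, which remethylates homocysteine with betaine, was at 14.1 and 14.6 FPKM against 9.03, 14.4, 18.4, 12.6 and 6.12 FPKM. With the library pairs of low ratio as blocks, Bhmt was called lower (log2 fold change -0.86, limma adjusted p = 0.0183), against 3.87 for db/db minus m/m. That fold change rests only on the pairs that cross the labels.

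With all 5 db/db vehicle libraries as controls, limma again called 0 members, while 3605 genes had an unadjusted p under 0.05 and the median log2 fold change of members shifted to -0.11. The sign of the log2 fold change changed for 23 of 81 named members. Hif1a was at 27.8 to 32.9 FPKM in vehicle 1, 2 and 3 against 10.2 to 12.5 FPKM in the 7 libraries of low depth, Tfrc at 12.1 to 22.8 against 4.12 to 7.56 FPKM, and Slc5a2 at 219 to 407 against 524 to 609 FPKM. For these genes a comparison of dapagliflozin with the mean of all 5 vehicle libraries mixes the library set with the treatment, and the 2 cannot be told apart there.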

How the data were processed

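Per the labels' protocols, mirVana was used for RNA extraction and TruSeq Stranded mRNA for the libraries. The authors deposited FPKM values, 1 table for all samples. The submitters' processing notes name Trimmomatic, HISAT2, HTSeq, Cufflinks and build GRCm39. Tool versions and the strand setting of the counting: not given in the sources used here. As the annotation at hand was GRCm38, it was used by symbol, for overlaps only.

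FPKM values were whole multiples of the worth of 1 read in 100% of cases (relative tolerance 1e-08), so read numbers were recovered and used for depth, library pairs and limma-voom. Reads carry no molecular identifiers, so intervals on read numbers reflect counting error alone. A floor of 3 reads was 1.31 to 1.87 CPM in the 7 libraries.

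The main test was limma 3.58.1 in R 4.3.3 with an intensity trend on log2(FPKM + 1), 2-sided, over the 12848 genes whose mean reached 0.5 FPKM, with Benjamini-Hochberg adjustment over all of them. Fold changes are dapagliflozin minus vehicle on that scale, which understates low genes. Dapagliflozin 2 and 3 were averaged, leaving 4 residual degrees of freedom. Calls needed an adjusted p under 0.05. The recovery and the fits were tested on simulated data.

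Named genes are 10 fixed by name, 12 per direction by smallest p among members without overlap (no gene was called), and the member of smallest p of each list. Genes outside this rule (the most variable members, the largest differences by genotype, members over 2-fold, and Krt5) were chosen after their values were seen. Some results of this rule are not reported here. The members and the 58 gene lists were chosen with earlier results of these data known. The mitochondrially encoded list matched 0 genes. T cell, neutrophil, skeletal muscle and urothelium lists had 0 members.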

Additional observations from a re-analysis of the deposited data

Results flagged for a closer look

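Of 81 named members, 5 had 1 of the 4 dapagliflozin samples far from the other samples, judged by the gap to the nearest sample relative to the whole range (chance alone gives this in about 1 in 20). Cd14, the lipopolysaccharide co-receptor of macrophages, was at 19.2 FPKM in dapagliflozin 5, against 3.85 to 4.83 FPKM in the other samples. Cited2 was at 15.6 FPKM in dapagliflozin 5, against 13.3 to 13.5 FPKM. Cyp4a12a, a male-biased fatty acid hydroxylase, was at 17.7 FPKM in dapagliflozin 5, against 24.3 to 25.6 FPKM. The mean of dapagliflozin 2 and 3 was high for Fam98c, at 33.4 FPKM against 25.2 to 26.2 FPKM, and low for Sod3, the extracellular superoxide dismutase, at 213 FPKM against 228 to 231 FPKM. For Cyp4a12a vehicle 4 was lower still, at 13.9 FPKM, and for Cd14 vehicle 4 was above dapagliflozin 5.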

How the results depend on the processing

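Of 25 alternatives (21 planned and 4 added after pairs of libraries had been compared), 23 called 0 members in either direction and 0 in opposite directions to genotype. With the library set as a term, 9 members were called higher, 8 lower and 3 opposite to genotype (48 of all tested genes). With the pairs of libraries below sampling noise as a block, the counts were 21, 15 and 8 (87 of all), and the fit then called Alas1, Ddit4, Hbb-bs, Cd74 and H2-K1 among others. Its fold changes rest only on the pairs that cross the labels. Genes below the member minimum were called with no filter (3), with no intensity trend (2) and with dapagliflozin 2 and 3 as separate samples (2). The replicate block, by equal numbers, called 0 members (536 genes at an unadjusted p under 0.05), and equal numbers did not pair the samples (deviations from the group means correlated at -0.01 for number 4 and -0.72 for number 5). Leaving out 1 library gave 0 called members throughout, with 380 to 957 genes at an unadjusted p under 0.05; where vehicle 4 or 5 was left out, the lone vehicle sample was taken to vary like the dapagliflozin samples. Signs of the 81 named members held under both scalings and both other pseudocounts, and changed for at most 5 elsewhere, except for 23 with all 5 vehicle libraries. Precision is limited by 2 vehicle samples and by low reads: 282 members averaged under 20.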
